A study of Homo sapiens with 8 samples.

Results

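The expression of 10 genes of the Notch pathway was examined in SW480, a human colorectal adenocarcinoma cell line, with and without overexpressed SPOCK1. The genes are the receptors NOTCH1, NOTCH2 and NOTCH3, the ligands JAG1, JAG2 and DLL1, the target genes HES1, HES4 and HEY1, and LFNG, an enzyme that modifies the receptors. They were chosen by name, with earlier results of these data already known. All 10 were found among the 58735 genes of the count table and passed the filter on low counts. RNA sequencing compared 4 libraries titled SP, read as the design text's SW480 cells with stable SPOCK1-flag, with 4 titled Ct, read as its vector control. Per the labels' protocols, the SPOCK1 cells came from lentiviral infection and puromycin selection that went on until SPOCK1 was seen on a Western blot, and the protocol text is the same for the control libraries. SPOCK1, or testican-1, is a secreted proteoglycan, and by its title the study concerns stemness and Wnt signalling in colorectal cancer. The labels do not state that a group's 4 libraries were separate cultures or infections, so p-values here measure spread between libraries that could be purely technical. Should every group stem from 1 puromycin-selected pool, pool differences and SPOCK1 effects cannot be told apart.

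In the Notch pathway, a ligand of the Jagged or Delta type on a cell binds a Notch receptor on its neighbour. The receptor is then cut by ADAM proteases and γ-secretase, and its intracellular part enters the nucleus, joins the DNA-binding protein RBPJ and a Mastermind coactivator, and switches on repressor genes of the HES and HEY families. In the intestine Notch signalling keeps progenitors dividing and, through HES1, holds back ATOH1 and the secretory lineage. The RNA level of a receptor or ligand does not measure this cleavage, and HES and HEY transcripts are the nearest readout of it in these data.

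The upstream sequences of HES1 and HES4 are shown because GTGGGAA, the letters of the RBPJ motif, was found there in these members alone among those searched. The window searched ran from 250 bases before to 50 bases after each RefSeq transcript start (GRCh38.p14), and 8 of the 10 genes, without DLL1 and HEY1, had a window. The letters TGGGAA, on either strand, were in the windows of 3 of these 8 genes, HES1, HES4 and LFNG, and the longer GTGGGAA, which contains TGGGAA, in those of HES1 and HES4. Among all 35116 windows, 24.0% held TGGGAA and 6.25% held GTGGGAA. The 250 bases before the start are printed 5′ to 3′ on the gene's strand, for HES1 at chr3:194135898-194136147 (plus strand) and for HES4 at chr1:1000098-1000347 (minus strand). Capitals mark TGGGAA, with the G before it where there is one.
HES1: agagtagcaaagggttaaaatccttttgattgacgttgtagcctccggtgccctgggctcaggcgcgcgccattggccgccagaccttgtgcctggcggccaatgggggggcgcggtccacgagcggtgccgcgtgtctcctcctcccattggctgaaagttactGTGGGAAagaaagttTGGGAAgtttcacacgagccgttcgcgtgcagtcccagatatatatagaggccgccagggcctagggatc
HES4: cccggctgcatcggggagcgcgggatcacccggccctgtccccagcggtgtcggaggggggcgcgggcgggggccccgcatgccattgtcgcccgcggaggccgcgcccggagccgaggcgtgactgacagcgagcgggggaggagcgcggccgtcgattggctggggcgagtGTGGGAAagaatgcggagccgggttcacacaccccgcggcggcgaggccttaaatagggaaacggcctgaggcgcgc
In HES1 the GTGGGAA begins 85 bases before the start and a second TGGGAA begins 70 bases before it. In HES4 the single GTGGGAA begins 77 bases before the start. These matches describe letters and do not show binding.

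No member of the set was called changed by SPOCK1. By edgeR's quasi-likelihood test with Benjamini-Hochberg adjustment over 15790 genes, 0 of 10 rose and 0 of 10 fell at an adjusted p under 0.05, and DESeq2 and limma-voom also called 0. Over all genes tested, 1.04% were called, 39 (0.247%) that rose and 126 (0.798%) that fell. At an unadjusted p under 0.05 there were 2 members, NOTCH1 and DLL1, both lower with SPOCK1, where 8.17% of all genes were lower and 5.48% higher at that level, and DESeq2 and limma-voom gave 2 members each as well. The groups overlapped in every member, while over all genes they were apart in 4.8% with the SPOCK1 libraries lower and in 3.43% with them higher. The median log2 fold change of the 10 was -0.24, and 8 of them were negative, beside a median of -0.0042 and 50.8% negative over all genes. Without SPOCK1 library 1 the median of the 10 was -0.15. The number of falls over all genes moved with single libraries, to 66 without SPOCK1 library 2, 63 without SPOCK1 library 3 and 72 without control library 2, and the number of rises lay at 24 without SPOCK1 library 2 or control library 2, at 25 without control library 4 and at 66 without SPOCK1 library 4.

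The libraries held 35643585 to 42812951 counts in the SPOCK1 group and 36390186 to 41343049 in the controls. CPM are counts scaled to the usual common library size, with TMM factors. SPOCK1 (chr5:136975298-137598379) had 6719, 7828, 9712 and 8964 counts in SPOCK1 libraries 1 to 4, against 6, 0, 3 and 6 in control libraries 1 to 4. Of 10 colorectal epithelial markers 7 passed the filter and 1 was called. CDH1, the epithelial cadherin, averaged 11.2 ± 1.21 CPM in SPOCK1 cells and 17.8 ± 1.29 CPM in controls (SD, n = 4 each), and fell by 37.2% (log2 fold change -0.67, adjusted p = 0.00537 by edgeR) with the groups apart. VIL1, at 64.9 CPM in SPOCK1 cells and 78.1 CPM in controls, was also apart without being called (adjusted p = 0.197 by edgeR), and its part and that of CDH1 in the values that follow were not tested. EPCAM stood at 219.7 CPM in SPOCK1 cells and 218.6 CPM in controls, and it and the other 4 tested markers overlapped between groups, whereas the colon markers KRT20, CDX1 and CDH17 had 19, 2 and 2 counts over all 8 libraries. Summed markers of fibroblasts, endothelium and leukocytes stayed at or below 1.78 CPM in every SPOCK1 library and at or below 2.29 CPM in every control. Counts of ribosomal RNA genes took 0.612% ± 0.045 of SPOCK1 libraries and 0.715% ± 0.017 of controls (SD, n = 4 each), with no overlap, and their part in the values that follow was not tested. A trend with GC content differed between libraries of the same group: the quintile of genes highest in GC deviated from the lowest quintile by between -0.25 and 0.25 on the log2 scale in SPOCK1 libraries and between -0.15 and 0.24 in controls, with SPOCK1 library 1 at the low end.

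Compared per length, as CPM divided by kilobases of exon (RPKM) and averaged over all 8 libraries, HES4 stood highest and NOTCH3 lowest. HES4 averaged 19.2 ± 1.53 RPKM, JAG2 14.6 ± 1.38, NOTCH1 10.4 ± 1.91 and HES1 9.55 ± 1.17 (SD over 8 libraries). NOTCH2 averaged 6.06 ± 0.88 RPKM, JAG1 3.05 ± 0.28 and LFNG 3.02 ± 0.48. DLL1, at 0.555 ± 0.220 RPKM, HEY1, at 0.188 ± 0.087, and NOTCH3, at 0.0826 ± 0.0321, were low. Every HES4 value lay above every JAG2 value, every HES1 value above every NOTCH2 value, every NOTCH2 value above every JAG1 value and every LFNG value above every DLL1 value. The ranges of JAG2 and NOTCH1, NOTCH1 and HES1, JAG1 and LFNG, DLL1 and HEY1, and HEY1 and NOTCH3 overlapped. Within each of the 8 libraries JAG2 still lay above NOTCH1, and DLL1 above HEY1. The order of the remaining neighbours changed between libraries, so those cannot be ranked beyond their spread. Among 15790 tested genes ordered by mean RPKM, HES4 held place 2474 and NOTCH3 place 15336. TPM, which scales the per-length values to a fixed total in each library, gave the same order of the 10. The length used is that of all annotated exons of a gene, 16807 bases for NOTCH2, so genes with long exons that are seldom used are placed too low.

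**Figure D1:**
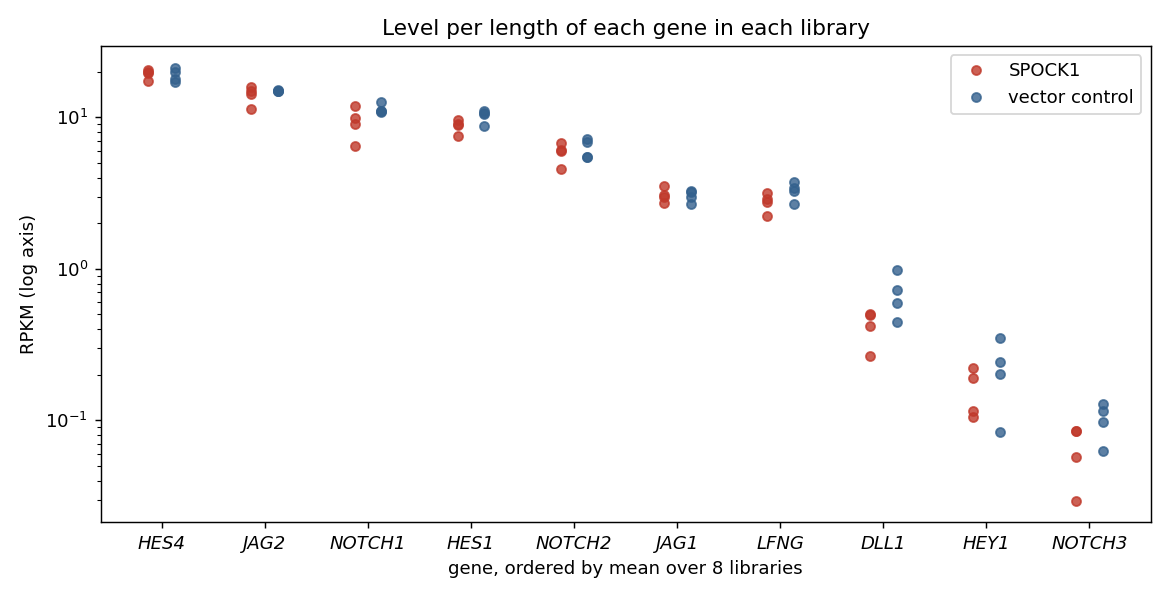
Level per length (RPKM, log axis) of each gene in each of 4 SPOCK1 libraries (red, left of each pair) and 4 vector control libraries (blue, right), ordered by the mean over 8 libraries. HES4 leads at 19.2 RPKM on average, and DLL1, HEY1 and NOTCH3 lie below 1 RPKM in every library.

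Among the receptors, NOTCH1 (ENSG00000148400, chr9:136494433-136545786, minus strand) and NOTCH2 (ENSG00000134250, chr1:119911553-120069626, minus strand) made up nearly all receptor RNA. Of the summed RPKM of the 3 receptors, NOTCH1 took 60.9% ± 2.3 in SPOCK1 libraries and 64.2% ± 2.5 in controls (SD, n = 4 each, here and for the other receptors). NOTCH2 took 38.7% ± 2.2 in SPOCK1 libraries and 35.2% ± 2.4 in controls, and NOTCH3 0.446% ± 0.242 in SPOCK1 libraries and 0.562% ± 0.126 in controls. These shares rest on the exonic lengths used. Without division by length, NOTCH1 averaged 97.1 CPM and NOTCH2 98.5 CPM in SPOCK1 libraries. In controls the averages were 118.0 CPM for NOTCH1 and 105.3 CPM for NOTCH2. NOTCH1 stood at 67.4, 94.3, 102.4 and 124.3 CPM in SPOCK1 libraries 1 to 4, against 131.1, 114.6, 112.2 and 114.2 CPM in control libraries 1 to 4. In 3 of the 4 SPOCK1 libraries it was below every control, while SPOCK1 library 4 lay above 3 of the 4 controls. The log2 fold change was -0.28 ± 0.13 (SE, unadjusted p = 0.0477, adjusted p = 0.359 by edgeR), with an unadjusted 95% interval of 0.678-fold to 0.998-fold. It was -0.14 without SPOCK1 library 1 and -0.42 without SPOCK1 library 4 (adjusted p = 0.626 and 0.0912), -0.52 within libraries 1 and 3 and -0.07 within libraries 2 and 4, and -0.16 with offsets for GC content and length in each library (adjusted p = 0.331). The GC content of the longest NOTCH1 transcript is 62.9%. In bulk RNA, fewer cells with a transcript and less of it per cell cannot be told apart.

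NOTCH2 had 76.5, 102.2, 100.7 and 114.6 CPM in SPOCK1 libraries 1 to 4, against 120.7, 116.1, 92.3 and 92.3 CPM in control libraries 1 to 4. The ranges overlapped over most of their width, and SPOCK1 library 1 was again the lowest. The difference on the log2 scale was -0.10 ± 0.12 (SE, adjusted p = 0.764 by edgeR, 95% interval 0.787-fold to 1.11-fold), and without SPOCK1 library 1 it was 0.0038. NOTCH3 (ENSG00000074181, chr19:15159038-15200981, minus strand), a receptor best known from vascular smooth muscle, had 30, 19, 12 and 28 counts in SPOCK1 libraries 1 to 4, against 46, 40, 34 and 24 in control libraries 1 to 4. At this depth its interval ran from 0.364-fold to 1.12-fold (log2 fold change -0.65 ± 0.38, SE, adjusted p = 0.478 by edgeR). That range holds both no change and a marked fall. The NOTCH3 value was -0.40 without SPOCK1 library 3 (adjusted p = 0.705).

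**Figure D2:**
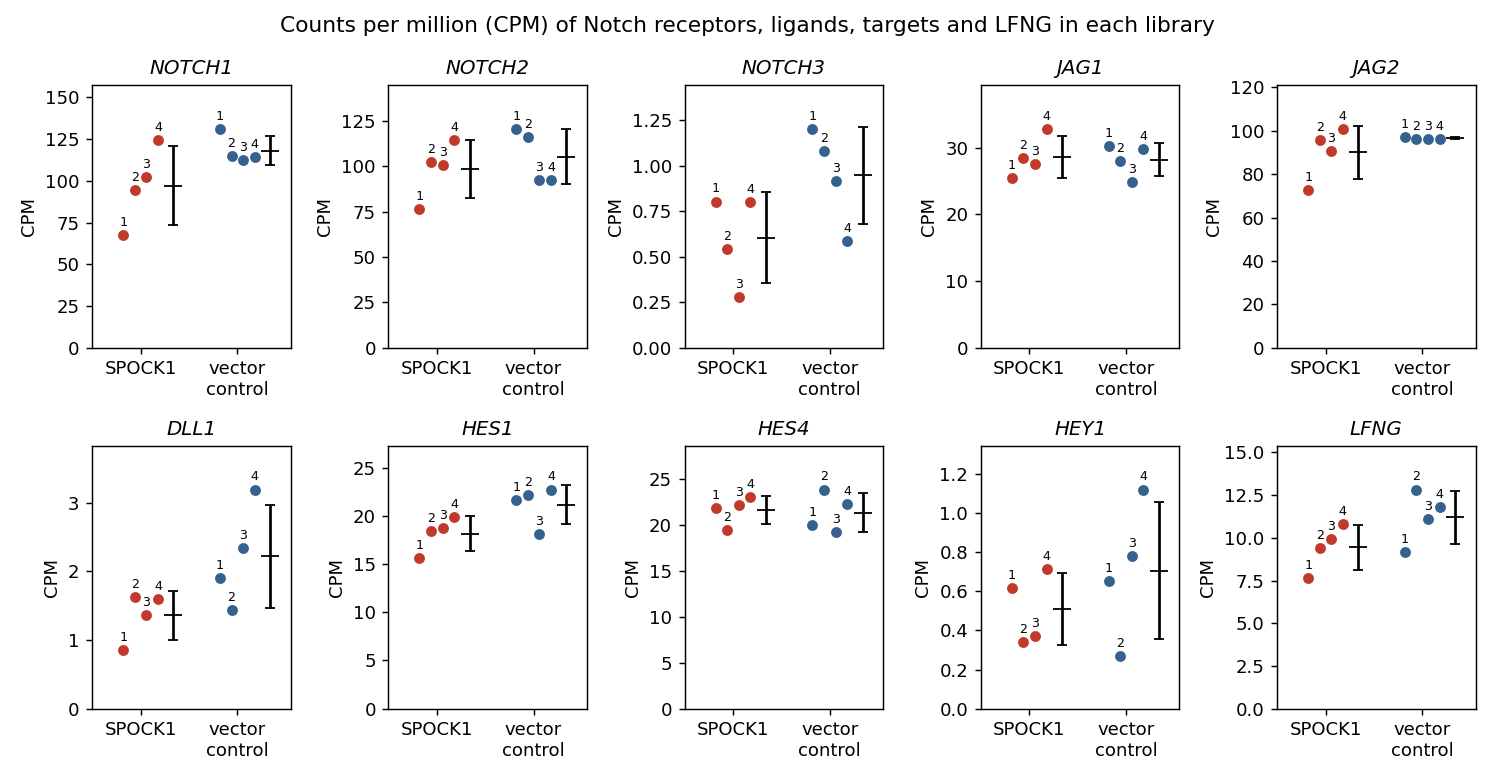
CPM (linear axes from 0) of each gene in the SPOCK1 libraries (red, left) and vector control libraries (blue, right), with library numbers; black marks give mean ± SD (n = 4 each). The groups overlap in all 10 panels, and the 4 JAG2 controls lie between 96.2 and 97.2 CPM while the JAG2 SPOCK1 libraries spread from 72.5 to 100.9 CPM.

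Among the ligands, JAG1 and JAG2, which bear the Jagged type of extracellular region, differed little between groups, and the Delta-type ligand DLL1 was low. JAG1 (ENSG00000101384, chr20:10637684-10673999, minus strand) had 25.4, 28.5, 27.6 and 32.8 CPM in SPOCK1 libraries 1 to 4, against 30.3, 27.9, 24.9 and 29.7 CPM in control libraries 1 to 4. The groups overlapped throughout. JAG1 gave 0.02 ± 0.10 as log2 fold change (SE, adjusted p = 0.958 by edgeR), with an interval of 0.871-fold to 1.18-fold. JAG2 (ENSG00000184916, chr14:105140981-105168824, minus strand) had 72.5, 95.7, 90.7 and 100.9 CPM in SPOCK1 libraries 1 to 4, against 97.2, 96.3, 96.2 and 96.3 CPM in control libraries 1 to 4. The controls were nearly equal, and the SPOCK1 libraries lay on both sides of them. The log2 fold change was -0.10 ± 0.09 (SE, adjusted p = 0.675 by edgeR, interval 0.814-fold to 1.07-fold), and -0.01 without SPOCK1 library 1. JAG2 shares 469 exonic bases with AL512356.1, which had 0 counts, and how reads in shared exons were counted is not given in the sources used here.

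DLL1 (ENSG00000198719, chr6:170282206-170306565, minus strand) was the member with the smallest p. It had 32, 57, 59 and 56 counts in SPOCK1 libraries 1 to 4, or 0.856, 1.63, 1.36 and 1.60 CPM. In control libraries 1 to 4 it had 73, 53, 87 and 131 counts, or 1.91, 1.43, 2.35 and 3.19 CPM. Control library 2 fell among the SPOCK1 values, and the other controls lay above all of them. The log2 fold change was -0.71 ± 0.28 (SE, unadjusted p = 0.0202, adjusted p = 0.277 by edgeR), with an unadjusted interval of 0.408-fold to 0.917-fold. Leaving out SPOCK1 library 1 gave -0.54 and leaving out control library 4 gave -0.48 (adjusted p = 0.489 and 0.492), and offsets for GC content and length gave -0.69 (adjusted p = 0.185). The span of DLL1 overlaps FAM120B on the other strand without shared exonic bases.

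**Figure D3:**
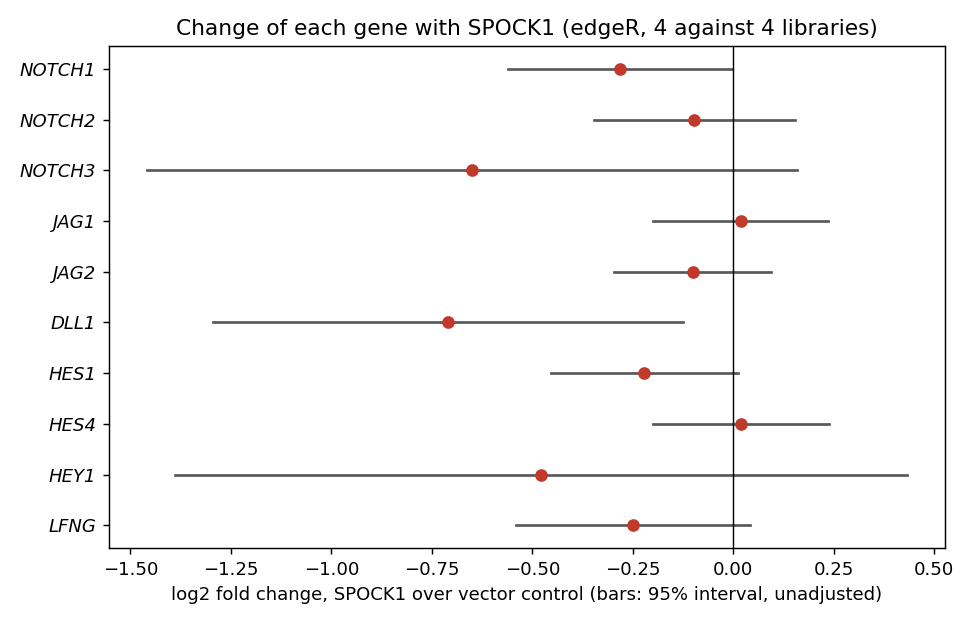
Log2 fold change of each gene, SPOCK1 over vector control (edgeR, 4 against 4 libraries), with its 95% interval before adjustment for multiple testing. The intervals of NOTCH1 and DLL1 lie below 0, those of the other 8 genes include 0, and no gene passed after adjustment over 15790 genes.

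Of the target genes, HES1 was lower on average with SPOCK1 without passing the test, and HES4 was level. HES1 (ENSG00000114315, chr3:194136145-194138732, plus strand), the basic helix-loop-helix repressor that restrains ATOH1, had 15.7, 18.5, 18.7 and 19.9 CPM in SPOCK1 libraries 1 to 4, against 21.7, 22.2, 18.2 and 22.8 CPM in control libraries 1 to 4. Control library 3 lay among the SPOCK1 values, and the other 3 controls lay above all of them. The log2 fold change was -0.22 ± 0.11 (SE, unadjusted p = 0.0602, adjusted p = 0.392 by edgeR, interval 0.730-fold to 1.01-fold). It was -0.21 within libraries 1 and 3, -0.23 within libraries 2 and 4, and -0.29 with offsets for GC content and length (adjusted p = 0.144). HES4 (ENSG00000188290, chr1:998962-1000172, minus strand), a related repressor, had 21.9, 19.4, 22.1 and 23.0 CPM in SPOCK1 libraries 1 to 4, against 20.0, 23.9, 19.3 and 22.2 CPM in control libraries 1 to 4. These ranges lay almost on top of each other, and the log2 fold change was 0.02 ± 0.10 (SE, adjusted p = 0.955 by edgeR, interval 0.871-fold to 1.18-fold). HEY1 (ENSG00000164683, chr8:79764010-79767863, minus strand), a HES-related repressor, had 23, 12, 16 and 25 counts in SPOCK1 libraries 1 to 4, against 25, 10, 29 and 46 in control libraries 1 to 4. Its interval, 0.382-fold to 1.35-fold, was the widest among the 10 on the log2 scale (log2 fold change -0.48 ± 0.43, SE, adjusted p = 0.670 by edgeR). The HEY1 value was -0.16 without control library 4 and -0.75 without control library 2 (adjusted p = 0.916 and 0.534).

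LFNG (ENSG00000106003, chr7:2512529-2529177, plus strand), the fringe glycosyltransferase that changes which ligands a receptor answers to, had 7.63, 9.38, 9.94 and 10.8 CPM in SPOCK1 libraries 1 to 4. In control libraries 1 to 4 it had 9.14, 12.8, 11.1 and 11.8 CPM. Control library 1 lay among the SPOCK1 values, and the other 3 controls lay above all of them. The log2 fold change was -0.25 ± 0.14 (SE, unadjusted p = 0.0891, adjusted p = 0.448 by edgeR, interval 0.688-fold to 1.03-fold), and -0.16 without SPOCK1 library 1 (adjusted p = 0.730).

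SPOCK1 library 1 was low for many of these genes. It held the lowest value of the 8 libraries for 6 of the 10, namely NOTCH1, NOTCH2, JAG2, DLL1, HES1 and LFNG, and it held the lowest value for 22.8% of all genes tested. The median deviation of the 10 genes from their own means was -0.33 in SPOCK1 library 1, and -0.10, -0.04 and 0.11 in SPOCK1 libraries 2 to 4, against 0.11, 0.13, 0.07 and 0.09 in control libraries 1 to 4 (log2 scale). NRARP, a Notch target that limits signalling and was named here outside the rule for named genes, showed the same low value, with 28.1, 38.1, 38.2 and 39.5 CPM in SPOCK1 libraries 1 to 4, against 36.9, 37.4, 40.4 and 40.5 CPM in control libraries 1 to 4. Among the 6 genes lowest there, GC content ran from 49.4% for NOTCH2 to 64.0% for JAG2, and that of HES4 is 73.9%. With offsets for GC content and length, the log2 fold change was -0.01 for NOTCH2, 0.003 for JAG2 and -0.18 for LFNG. It was 0.12 for HES4, 0.04 for JAG1, -0.50 for NOTCH3 and -0.54 for HEY1, and the values of NOTCH1, DLL1 and HES1 are given above. The median of the 10 was -0.17 with these offsets. The part of the GC trend in these values was not tested gene by gene beyond the offsets given.

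**Figure D4:**
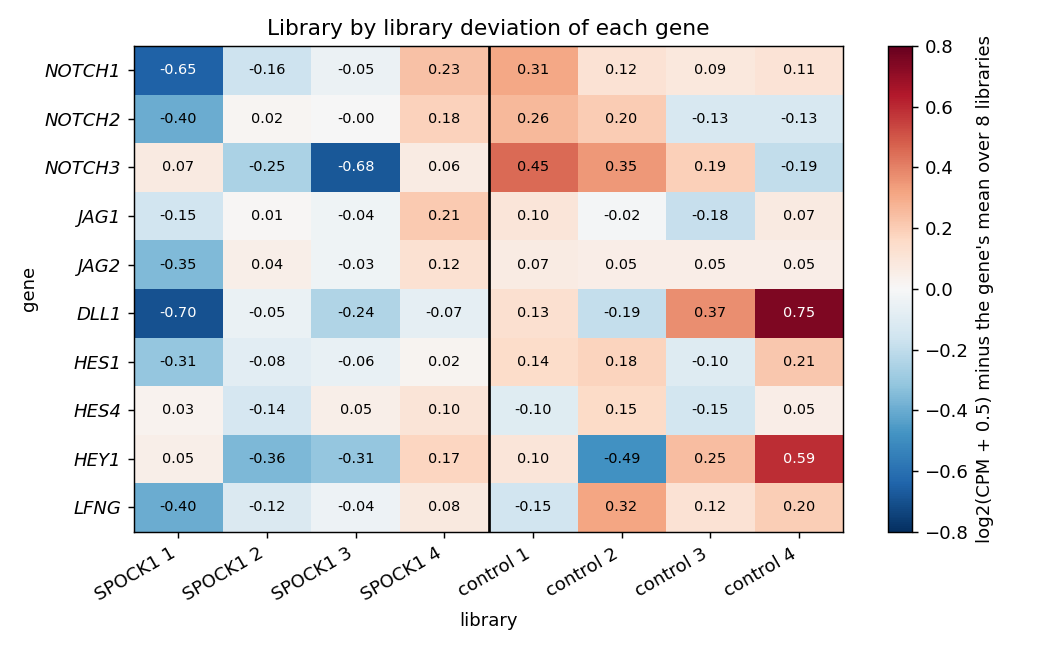
Deviation of log2(CPM + 0.5) from the gene's mean over 8 libraries, for each gene (rows) in SPOCK1 libraries 1 to 4 (left of the line) and control libraries 1 to 4 (right), blue below and red above the mean. SPOCK1 library 1 is blue in 7 of 10 rows, and HES4 shows the least spread with JAG1.

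Ratios of related genes within a library do not depend on library scaling, and 3 were tested, chosen after the values were seen. In each ratio the first gene is richer in GC than the second. GC content is 73.9% for HES4 and 49.9% for HES1, 62.9% for NOTCH1 and 49.4% for NOTCH2. For JAG2 it is 64.0% and for JAG1 49.6%. The part of the GC trend between libraries in these ratios was not tested. HES4 to HES1 in RPKM was 2.58, 1.94, 2.18 and 2.14 in SPOCK1 libraries 1 to 4, against 1.70, 1.98, 1.96 and 1.80 in control libraries 1 to 4. The means were 2.21 ± 0.27 in SPOCK1 libraries and 1.86 ± 0.13 in controls (SD, n = 4 each), with an exact two-sided permutation p of 0.0857, or 0.171 adjusted over the 3 ratios, where 0.0286 is the smallest p that 4 against 4 libraries allow. NOTCH1 to NOTCH2 averaged 1.58 ± 0.15 in SPOCK1 libraries and 1.83 ± 0.19 in controls (SD, n = 4 each, exact permutation p = 0.114, adjusted 0.171). JAG2 to JAG1 averaged 4.57 ± 0.33 in SPOCK1 libraries and 5.00 ± 0.44 in controls (SD, n = 4 each, exact permutation p = 0.171, adjusted 0.171). After this adjustment a single differing ratio could not pass 0.05 with 4 against 4 libraries, so these tests leave a difference neither shown nor denied.

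The rest of the pathway was read from a list of 75 further genes grouped by role, of which 67 passed the filter. Of these 0 rose and 1, HES6, fell (edgeR, adjusted p under 0.05), a share near that of all genes, of which 0.798% fell. At an unadjusted p under 0.05 there were 5 of 67 lower and 0 higher, where 8.17% of all genes were lower and 5.48% higher. The median log2 fold change of the 67 was -0.09, and 47 were negative, beside -0.0042 and 50.8% negative over all genes. Besides HES6 and the gene with the smallest p in each role, pathway genes are named here with their values already known. The groups did not overlap in 4 genes that were lower with SPOCK1, HES6, NEURL1B, NCSTN and MAML2, and in 1 that was higher, SNW1. Over all genes 4.8% were apart with SPOCK1 lower and 3.43% with SPOCK1 higher, so these counts of 67 lie near the background.

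HES6 (ENSG00000144485, chr2:238238267-238240662, minus strand) is an atypical family member that in mouse counters the repression exerted by HES1 and is not switched on by Notch. It had 41.7, 39.3, 35.0 and 38.5 CPM in SPOCK1 libraries 1 to 4, against 45.9, 52.0, 51.4 and 54.3 CPM in control libraries 1 to 4. Every SPOCK1 library lay below every control. HES6 fell by 24.1% (log2 fold change -0.40 ± 0.09, SE, adjusted p = 0.0412 by edgeR, interval 0.666-fold to 0.865-fold). The call was lost without SPOCK1 library 2, 3 or 4 (adjusted p = 0.128, 0.157 and 0.0515) or control library 2, 3 or 4 (adjusted p = 0.128, 0.0925 and 0.121) and in a fit blocked on replicate number (adjusted p = 0.0816). It held with DESeq2 (adjusted p = 0.00372) and with offsets for GC content and length, at -0.31 (adjusted p = 0.0294).

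Among the other targets and family members, 5 of 6 tested genes were not called. NRARP differed by -0.11 ± 0.11 on the log2 scale (SE, adjusted p = 0.697 by edgeR). On the same scale HES7, HEY2, HEYL and HES2 had -0.21, -0.08, -0.33 and 0.03. HES5, a Notch target of neural progenitors, had 14 counts over all 8 libraries, and HES3 had 0. ATOH1, the secretory lineage factor that HES1 restrains, also had 0 counts, which allows up to 0.0199 CPM over the SPOCK1 libraries and 0.0196 CPM over the controls, and NEUROG3, the endocrine factor, had 3 counts. A change in these genes could not be measured here.

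Of the nuclear complex, 9 of 9 genes were tested and 0 called. RBPJ, the DNA-binding partner of the Notch intracellular part, was named outside the rule. It had 27.9, 25.7, 33.1 and 28.9 CPM in SPOCK1 libraries 1 to 4, against 38.1, 28.3, 32.1 and 26.3 CPM in control libraries 1 to 4 (log2 fold change -0.11 ± 0.12, SE, adjusted p = 0.731 by edgeR). MAML2, a Mastermind coactivator, had 7.04, 9.67, 9.18 and 9.44 CPM in SPOCK1 libraries 1 to 4, against 16.3, 9.83, 12.0 and 11.2 CPM in control libraries 1 to 4. It did not pass the test (log2 fold change -0.48 ± 0.15, SE, adjusted p = 0.176 by edgeR), and MAML1 and MAML3 had log2 fold changes of -0.11 and -0.16. Of 15 corepressor genes 0 were called, and TLE4, a Groucho-type corepressor that HES proteins recruit, had the smallest p, at -0.28 ± 0.11 (SE, adjusted p = 0.275 by edgeR).

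Upstream of the receptors and at the membrane, 0 of 37 tested genes were called. Of 15 ubiquitin ligase and endocytosis genes, NEURL1B, a Neuralized ligase that acts on ligands, had the smallest p. It had 6.93, 9.84, 10.5 and 9.92 CPM in SPOCK1 libraries 1 to 4, against 13.3, 13.4, 11.1 and 13.2 CPM in control libraries 1 to 4. The groups were apart but the adjusted p was 0.141 (log2 fold change -0.45 ± 0.14, SE, edgeR). Among 9 cleavage genes NCSTN, the nicastrin subunit of γ-secretase, differed by -0.21 ± 0.09 on the log2 scale (SE, adjusted p = 0.313 by edgeR), and the proteases ADAM10 and ADAM17 had -0.16 and -0.03. NCSTN shares 129 exonic bases with COPA and ADAM17 shares 1323 with IAH1, so their reads may not be fully separate. POFUT1, which adds O-fucose to the receptors, had the smallest p of the 8 glycosylation enzymes, at 0.11 ± 0.08 (SE, adjusted p = 0.562 by edgeR), and MFAP2, a matrix protein reported to bind Notch ligands, the smallest of the 5 tested other receptors and ligands, at -0.23 ± 0.12 (SE, adjusted p = 0.429 by edgeR). NOTCH4, DLL3 and DLL4 had -0.07, -0.08 and -0.25, and DLK1 and MFAP5 had 0 counts.

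**Figure D5:**
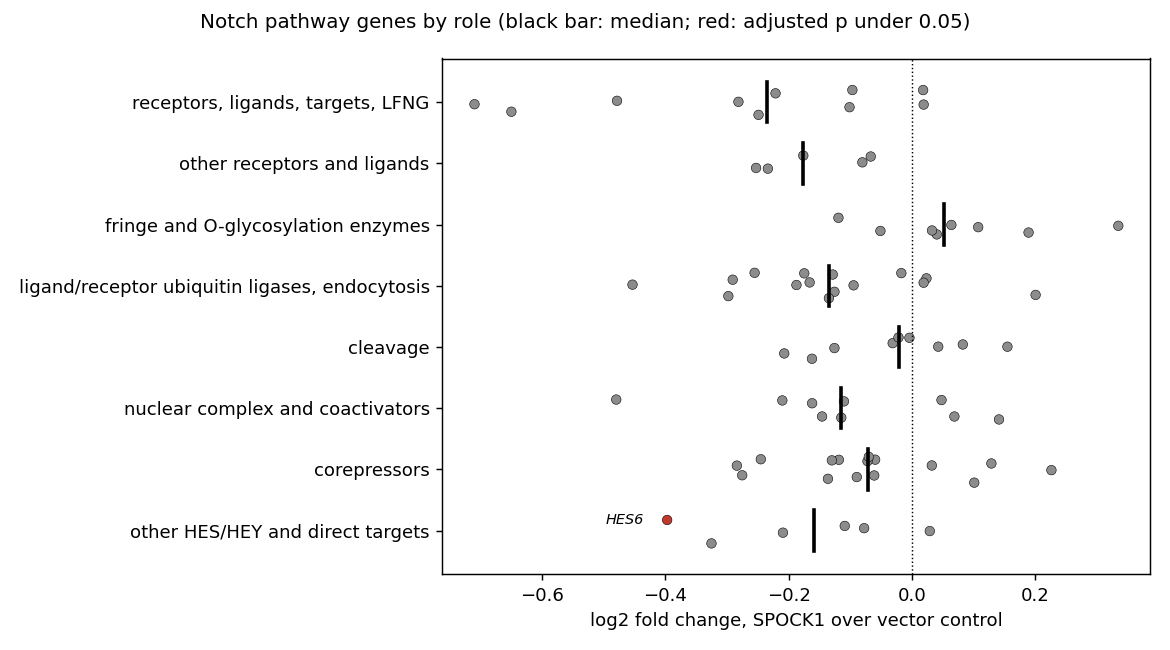
Log2 fold change, SPOCK1 over vector control, of the 10 genes (top row) and of 67 further tested pathway genes by role; each point is a gene, the black bar is the row's median and the vertical spread is for legibility. HES6, in red at -0.40, is the single gene past an adjusted p of 0.05, and the median of the glycosylation enzymes is 0.05.

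The genes whose log2 CPM was most like that of HES1 over the 8 libraries, of 11808 other protein-coding genes with a mean of at least 1 CPM, were DOLK, IQGAP3 and LRRC3 (Pearson r = 0.982, 0.978 and 0.975, CPM + 0.5). Those most like DLL1 were C1QL1, DLX6 and HLA-B (r = 0.974, 0.956 and 0.917). These are descriptions over 8 points that share library depth and scaling, and none of the 6 genes was called (adjusted p = 0.206 to 0.505 by edgeR).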

How the data were processed

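The measurements are the authors' deposited read counts, 1 whole number per gene and library, used unchanged. The submitters' processing notes list CASAVA, the aligner HISAT2 (2.0.5) and the counter featureCounts (1.5.0-p3). No source used here gives the build, how strand was set or what became of multi-mapping reads. Start, end, strand and exonic length of all 58735 genes were identical to GENCODE release 29, an annotation of GRCh38, and the coordinates printed are the deposited ones. The deposited gene length, a further column (other than counts), was used for RPKM and TPM.

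Groups were taken from the library titles. Counts were tested with edgeR 4.0.16 in R 4.3.3: filterByExpr (minimum count 10, minimum total 15), TMM factors, quasi-likelihood F test without covariates, Benjamini-Hochberg over 15790 genes, called at an adjusted p under 0.05. The SE is the log2 fold change over the root of F, and intervals are 95% t intervals before adjustment. Offsets for GC content (longest GENCODE transcript) and exonic length were natural splines with 5 degrees of freedom per library. DESeq2 1.42.0, limma-voom (limma 3.58.1), other factors and filters, blocks, subsets of libraries and each library left out were alternatives. The tests were checked on simulated counts with planted changes and no GC trend between libraries, so the check does not cover that trend.

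The members, lists and alternatives were chosen with earlier results of these data known. Named genes were all 10 members, called genes of the wider list, the gene with the smallest p in each role, and the 3 genes most like HES1 and the member with the smallest p. Intervals and the limit at 0 counts (3 counts) cover counting error or library spread only. Promoter sequences are RefSeq's (GRCh38.p14).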

Additional observations from a re-analysis of the deposited data

Results flagged for a closer look

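In 2 of 20 sets of 4 libraries (10 genes in each of 2 groups) a single library lay far from the others relative to the range, by Dixon's criterion at 95%, which chance alone meets in about 1 set in 20. NOTCH1 stood at 131.1 CPM in control library 1, while the other controls lay between 112.2 and 114.6 CPM. Without that library the log2 fold change of NOTCH1 was -0.23 (adjusted p = 0.593 by edgeR). JAG2 stood at 97.24 CPM in control library 1, while the other controls lay between 96.2 and 96.3 CPM, so the gap is small in size and large only beside the very narrow spread of the controls.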

How the results depend on the processing

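In every alternative run, 0 members were called in either direction. With the filter at a mean of at least 1 CPM, NOTCH3 and HEY1 were left out of the test and of the members' median. Genes called over all genes numbered 39 higher and 126 lower, and 126 and 289 with no filter beyond 1 count, 113 and 285 with DESeq2, 102 and 249 with a block of libraries 1 and 3 against 2 and 4, 1 and 7 within libraries 1 and 3 alone, 46 and 94 within libraries 2 and 4 alone, and 221 and 324 with GC content and length offsets. With 1 library left out they ranged from 24 to 66 higher and from 63 to 171 lower. Of the wider list 1 gene was called lower, and 2 with no filter (HES6 and MAML2), 0 with the replicate block, 0 within libraries 1 and 3 alone, and 0 to 1 with 1 library left out. The cause was not tested. The fit with no filter used 165400 degrees of freedom, against 16.76 in the main fit, so a gene's own spread carried almost no weight there. With the replicate number as a block 31 genes were higher and 84 lower. Same-numbered libraries were not uniformly alike: correlations of their deviations from group means were -0.17, 0.11, 0.13 and 0.20 for libraries 1 to 4. Crossed numbers gave 0.39 (SPOCK1 library 1, control library 3), 0.32 (SPOCK1 3, control 1), 0.30 (SPOCK1 4, control 2) and 0.13 (SPOCK1 2, control 4). Those are the crossed pairs within libraries 1 and 3 or within 2 and 4. The remaining crossed pairs lay between -0.39 (SPOCK1 4, control 3) and -0.02 (SPOCK1 2, control 1). Libraries 1 and 3 were set against 2 and 4, a split chosen with earlier results known, and in both groups the GC trend was negative in libraries 1 and 3 and positive in 2 and 4. The median log2 fold change of the members lay between -0.29 and -0.15. Adding NOTCH2NLA to NOTCH2 left its log2 fold change at -0.10. Few counts limit NOTCH3, HEY1 and DLL1.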

Other observations

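NOTCH2NLA (chr1:146146203-146229026, minus strand), a near-identical partial copy of NOTCH2 and the single NOTCH2NL gene under that name in the count table, had 0, 2, 1 and 2 counts in SPOCK1 libraries 1 to 4, against 8, 6, 8 and 6 in control libraries 1 to 4. It was below the filter on low counts. Pooled over libraries, with 5 counts in SPOCK1 cells and 28 in controls, the depth-scaled ratio came to 0.182 (exact 95% limits 0.0548 and 0.477, counting error only). Fitted without the filter, the difference was -2.33 ± 1.13 on the log2 scale (SE, adjusted p = 0.422 by edgeR). That fit gave almost no weight to a gene's own spread between libraries. How reads that match both NOTCH2 and its copies were assigned is not given in the sources used here, so these counts are uncertain.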
